A study of Rattus norvegicus with 6 samples.

Results

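The immediate early genes Fos, Fosb, Jun, Junb, Egr1, Egr2 and Atf3 and the orphan nuclear receptors Nr4a1, Nr4a2 and Nr4a3 were described in neonatal rat ovary, array by array. The 10 genes were chosen by name with values of these same arrays in view, so their levels and the differences between treatments are a description and carry no test. A probe belonged to a gene when the RefSeq accession in the array files mapped to that gene's symbol. By this rule 9 of the 10 genes had a probe, and together they held 10 of the 30367 probes, which named 15148 gene symbols in all. No probe was matched to Fosb. Ovaries were taken on postnatal day (PND) 7 from female Wistar rat pups that had received 0.05 mg/kg lipopolysaccharide (LPS) of Salmonella enterica into the peritoneum on PNDs 3 and 5, or saline in the same volume on the same days. LPS is a component of the bacterial outer membrane that is recognised by Toll-like receptor 4. RNA of whole ovaries was measured on 3 single-colour Agilent arrays for each treatment. Per the study's methods whole litters received one treatment, the ovaries came from a few pups of a pair of litters per treatment, and the pups behind each array were not stated. The spread between arrays may therefore be partly technical, and litter was not a term in any fit.

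Immediate early genes are transcribed within minutes of a stimulus without new protein synthesis, through transcription factors that already sit in the cell, mainly SRF with its Elk partners and CREB, and most of their mRNAs are short-lived. Fos, Fosb, Jun, Junb and Atf3 encode basic leucine zipper proteins that pair with each other to form AP-1 and related factors, and Egr1 and Egr2 encode zinc finger factors that bind GC-rich sites. Nr4a1 (Nur77), Nr4a2 (Nurr1) and Nr4a3 (Nor1) encode nuclear receptors without a known hormone ligand, whose mRNAs rise after corticotropin in the adrenal cortex and after luteinizing hormone in the ovary, and which act on genes of steroid synthesis.

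Nr4a1 and Nr4a3 stood out among the genes with a probe. Nr4a1 was 5.41-fold lower on the LPS arrays than on the saline arrays. Nr4a3 was 6.20-fold lower by a bound set on the LPS arrays, where it was dim, with saline replicate 1 at its own dim signal. Both values came from saline replicates 2 and 3, while saline replicate 1 lay near the LPS arrays. The AP-1 genes and Egr1 differed by less than 2-fold, and Atf3 did not differ in its mean. At least 2-fold lower on LPS arrays were 2 of 9 genes, and 2.07% of all probes were. No gene of the 9 was at least 2-fold higher.

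Levels are given throughout on a log2 scale, as processed signal relative to the 75th percentile of the same array, so that 0 is the level of the 75th percentile probe. They compare arrays for one probe and not one gene with another. Differences are the mean of the 3 LPS arrays minus the mean of the 3 saline arrays, with the standard error (SE) of a limma fit across all probes. A probe was counted as well above background on an array when Agilent's software marked more of its spots so than not. Of the 9 genes 7 were well above background on all 6 arrays, Nr4a3 on saline replicates 2 and 3 only, and Egr2 on no array. Because the RNA came from whole ovaries, fewer cells of a type and less RNA per cell cannot be told apart.

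All arrays lay on 1 slide, with the 3 saline arrays and LPS replicate 1 in one row and LPS replicates 2 and 3 in the other. Between 66.3 and 76.0% of spots were well above background, and the 75th percentile of the signal lay between 2824 and 6754. The labelled tissue was checked against marker genes. All 7 oocyte markers with a probe (of 10 listed) and at least 6 of the 7 granulosa cell markers with one (of 8, none matched for Foxl2) were well above background on each array, with the oocyte factor Gdf9 between 0.42 and 2.55 and the granulosa cell hormone Amh between 1.98 and 4.29. Saline replicates 2 and 3 stood apart from the other 4 arrays, since marker transcripts of the adrenal gland were high on them. All 11 adrenal medulla markers with a probe and 11 of 12 adrenal cortex markers, with Cyp17a1 as the exception, were highest on these arrays. Of the cortex list, Nr5a1, Star, Cyp11a1, Cyp17a1, Hsd3b1 and Scarb1 are also expressed in ovary. Differences that rest on these arrays are therefore also given without them.

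**Figure D1:**
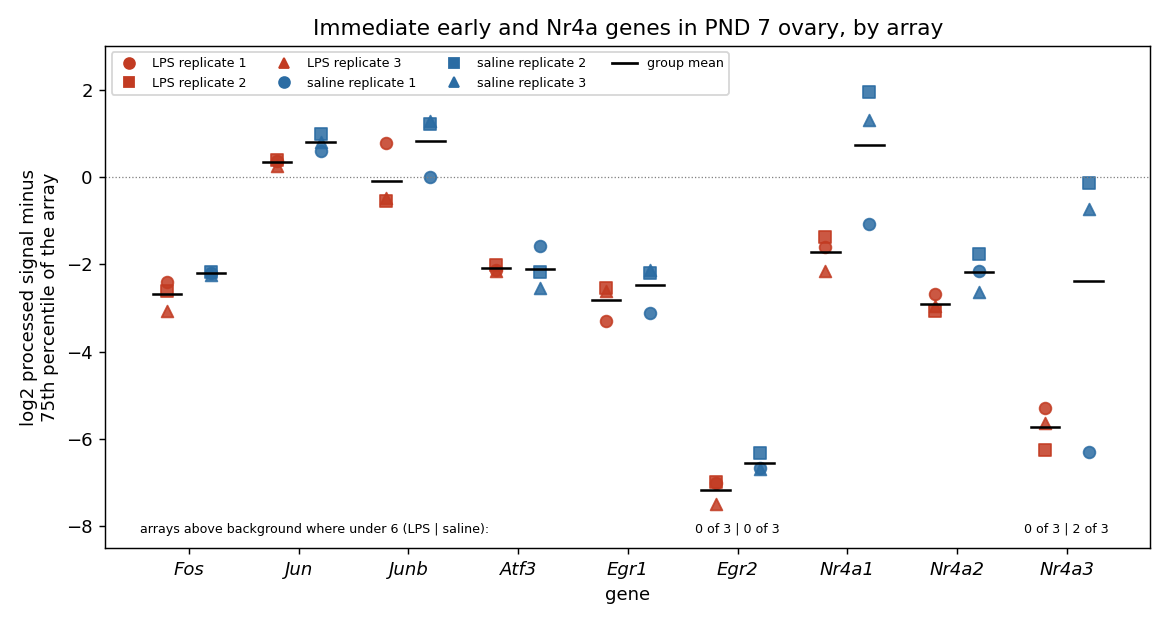
Levels of the 9 genes with a probe on each array, in log2 units relative to the array's 75th percentile (y axis). Red points are LPS arrays and blue points saline arrays, the marker shape gives the replicate, and black bars are group means of 3 arrays. Saline replicates 2 and 3 stand far above the other 4 arrays for Nr4a1, at 1.95 and 1.30, and for Nr4a3, at -0.13 and -0.73. The other genes span less over the arrays, from 0.72 for Jun to 1.82 for Junb. The numbers at the bottom mark genes that were not above background on every array.

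Nr4a1, the family member best known for its induction by trophic hormones in steroid-producing cells, was measured with 10 spots per array. Its level was -1.61, -1.36 and -2.16 on LPS replicates 1 to 3, and -1.08, 1.95 and 1.30 on saline replicates 1, 2 and 3. In linear terms these were 32.7, 38.8 and 22.3% of the 75th percentile signal for LPS and 47.4, 386 and 245% for saline. The groups did not overlap, but 2 saline arrays were high and the third was close to the LPS arrays. The difference was -2.44 (SE 0.75), between means of -1.71 ± 0.41 (SD, n = 3) for LPS and 0.72 ± 1.59 (SD, n = 3) for saline. Saline replicates 2 and 3 exceeded the highest of the other arrays by 2.37, whereas the 3 saline arrays spanned 3.03 among themselves. Spots of the Nr4a1 probe on one array agreed closely, with an SD from 0.029 to 0.107 on the log2 scale, which is far less than the gap between the saline arrays. Leaving out saline replicate 1 moved the difference to -3.34, leaving out saline replicate 2 to -1.82, and the other arrays left out singly gave values between these. With both saline replicates 2 and 3 left out, the 1 remaining saline array lay 0.64 above the LPS mean (difference -0.64), which is below 2-fold.

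Nr4a3, which encodes Nor1, showed the same 2 high arrays more sharply. Its probe read -5.29, -6.25 and -5.64 on LPS replicates 1 to 3 and -6.31, -0.13 and -0.73 on saline replicates 1 to 3. Saline replicate 1 was the lowest of the 6 arrays, so the groups overlapped, and the gap from saline replicates 2 and 3 to the other arrays was 4.56. Since none of the LPS arrays had the probe well above background, the signal there only sets a bound. Nr4a3 was 6.20-fold lower on the LPS arrays, from the mean of the saline arrays against this bound. For the bound each LPS array took whichever was higher of the probe's signal and the dimmest signal well above background. Saline replicate 1, also too dim, entered the mean at its own signal, so 6.20-fold is not a strict lower limit. The same holds for 2.83-fold without saline replicate 2 and 3.49-fold without saline replicate 3. Without saline replicate 1 Nr4a3 was at least 24.1-fold lower. With saline replicates 2 and 3 both left out, Nr4a3 was well above background on no remaining array.

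Nr4a2, which encodes Nurr1 and is best known from dopaminergic neurons, did not share this pattern on the probe that stood for it. The brighter of its probes, with 1 spot, gave -2.68, -3.07 and -2.96 on LPS replicates 1 to 3 and -2.14, -1.76 and -2.64 on saline replicates 1 to 3. Every saline array was above every LPS array, although saline replicate 3 exceeded LPS replicate 1 only slightly, and the difference was -0.72 (SE 0.26). A second Nr4a2 probe, with 2 spots, gave -2.65, -2.72 and -2.80 for LPS and -2.81, -2.38 and -2.47 for saline. On that probe the groups overlapped and the difference was -0.17 (SE 0.18), so the probes of this gene did not give the same picture. Saline replicates 2 and 3 were the highest arrays for the second probe. Saline replicate 1 (-2.81) was its lowest array, below the LPS mean of -2.72. Without saline replicates 2 and 3 the brighter probe gave -0.76, close to its value on all arrays.

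The sequence before the start of a gene is shown for Nr4a1, Junb and Egr1, because these genes were highest on saline replicates 2 and 3 and differ in the regulatory letters they carry. Each line holds the 250 bases upstream of the gene start in the RefSeq annotation of GRCr8, 5′ to 3′ on the gene's strand, at chr7:134259888-134260137 for Nr4a1 (plus strand), chr19:40080876-40081125 for Junb (plus strand) and chr18:26736828-26737077 for Egr1 (plus strand). Capitals mark the motifs found in the window.
Nr4a1: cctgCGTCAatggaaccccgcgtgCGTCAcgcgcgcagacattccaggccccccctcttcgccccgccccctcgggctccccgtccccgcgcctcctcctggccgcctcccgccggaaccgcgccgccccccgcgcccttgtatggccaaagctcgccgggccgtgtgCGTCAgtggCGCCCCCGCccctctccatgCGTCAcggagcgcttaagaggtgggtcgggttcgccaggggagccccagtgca
Junb: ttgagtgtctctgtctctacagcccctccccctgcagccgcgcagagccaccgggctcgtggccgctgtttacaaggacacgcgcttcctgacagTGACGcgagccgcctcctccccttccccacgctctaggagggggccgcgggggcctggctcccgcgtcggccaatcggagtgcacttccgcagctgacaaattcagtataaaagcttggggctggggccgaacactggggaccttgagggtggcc
Egr1: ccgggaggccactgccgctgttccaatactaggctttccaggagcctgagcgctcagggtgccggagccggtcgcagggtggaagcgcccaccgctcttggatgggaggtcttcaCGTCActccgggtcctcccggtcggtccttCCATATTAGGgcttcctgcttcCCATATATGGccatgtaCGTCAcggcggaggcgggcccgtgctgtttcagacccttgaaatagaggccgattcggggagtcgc
Both strands were searched for the CArG box bound by SRF, the cAMP response element TGACGTCA bound by CREB, its core TGACG, the AP-1 site TGANTCA, the NBRE AAAGGTCA bound by Nr4a receptors and the EGR site GCGNGGGCG. A full cAMP response element holds the core on both strands, so those motifs overlap. The core was added to the search after the Nr4a1 window had been read. The Nr4a1 window held 4 copies of the core, written CGTCA because they lie on the opposite strand, and 1 EGR site, CGCCCCCGC. A window with at least 1 core was common (18.2% of 33469 windows of this length), and one with at least 4 was rare (0.173%). The cut of 4 was taken from the Nr4a1 window itself. The windows were not matched for G and C, so nothing is drawn from this share. The EGR site was found in 4.29% of windows. The Egr1 window held 2 CArG boxes, CCATATTAGG and CCATATATGG, a motif present in 1.50% of windows, together with 2 cores. The Junb window held 1 core. Among the other genes with a probe, windows were listed for Egr2 (1 CArG box and 1 core) and Nr4a2 (1 core), and the table gave none for Fos, Jun, Nr4a3 and Atf3. No window of these genes held the full cAMP response element, the AP-1 site or the NBRE, which were found in 1.59, 6.34 and 1.24% of all windows. The Nr4a1 and Junb windows were rich in G and C, at 74.8 and 66%, against a median of 51.2% over all windows. The table gives 1 start per gene, and that of Nr4a1 lies within the annotated span of a gene with several transcripts. A match of letters is a description of the window and not evidence of binding.

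Fos, which pairs with Jun proteins to form AP-1, was steady among the saline arrays and lower and more spread among the LPS arrays. It read -2.39, -2.60 and -3.06 on LPS replicates 1 to 3 and -2.20, -2.17 and -2.25 on saline replicates 1 to 3. The groups did not overlap, and the saline arrays spanned only 0.074 against 0.67 for the LPS arrays. The Fos difference was -0.48 (SE 0.21), and it did not rest on saline replicates 2 and 3, since without them it was also -0.48. LPS replicate 3 was the lowest array, and leaving it out gave -0.29.

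Jun, the AP-1 subunit that can also pair with itself, gave 0.36, 0.39 and 0.26 on LPS replicates 1 to 3 and 0.59, 0.98 and 0.80 on saline replicates 1 to 3. The saline arrays were all higher than the LPS arrays, and saline replicates 2 and 3 were the highest. The Jun difference was -0.46 (SE 0.17) and became -0.26 without those 2 arrays, within the spread of the saline arrays, which covered 0.39. Junb, an AP-1 subunit of lower transcriptional activity than Jun, was measured with 1 spot and read 0.77, -0.55 and -0.48 on LPS replicates 1 to 3 and 0.01, 1.22 and 1.27 on saline replicates 1 to 3. The order of the Junb arrays did not follow the treatments, because LPS replicate 1 lay above saline replicate 1. Its difference was -0.92 (SE 0.48), with groups of means -0.09 ± 0.74 and 0.83 ± 0.71 (SD, n = 3 each). This value depended on single arrays. It was -1.35 without LPS replicate 1 and -1.33 without saline replicate 1, both past 2-fold, -0.68 without LPS replicate 2 and -0.09 without saline replicates 2 and 3.

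Atf3, a stress-induced factor that mostly represses transcription, read -2.12, -2.01 and -2.15 on LPS replicates 1 to 3 and -1.59, -2.17 and -2.54 on saline replicates 1 to 3. It was the gene whose saline arrays ran the opposite way, with saline replicate 1 the highest and saline replicates 2 and 3 the lowest of all 6. The Atf3 difference was 0.00 (SE 0.26), and its sign was not stable, being negative under 8 alternative settings and positive under 10. Without saline replicates 2 and 3 it was -0.51.

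Egr1, the zinc finger factor needed for pituitary luteinizing hormone and widely used as a marker of recent stimulation, read -3.30, -2.53 and -2.61 on LPS replicates 1 to 3 and -3.12, -2.20 and -2.13 on saline replicates 1 to 3. In both treatments replicate 1 was the lowest, and the groups overlapped. Arrays with the same replicate number differed by -0.18, -0.33 and -0.48. The Egr1 difference was -0.33, with an SE of 0.34. With the replicate number as a block the SE was 0.15, but neither the labels nor the methods pair the arrays by number. The difference turned positive without scaling between arrays (0.05) and without saline replicates 2 and 3 (0.31). Without LPS replicate 1 it was -0.09. Egr2, a relative of Egr1 known from hindbrain and Schwann cell development, was measured with 10 spots per array between -7.49 and -6.31, well above background on none, so no fold is given. Its saline arrays all lay above its LPS arrays, at levels where the signal is that of the background.

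Counted together, 5 of the 9 genes (Fos, Jun, Egr2, Nr4a1 and Nr4a2) had all saline arrays above all LPS arrays, and none the reverse. The same order was found in 18.4% of all probes measured on every array. Among the 7 genes well above background on all arrays it was found in 4, against 5.86% of probes that passed the same filter, and 1 of the 7, Nr4a1, was at least 2-fold lower, against 1.48% of such probes. Since the genes were chosen on this contrast, these shares describe them and nothing is drawn from them. The median difference of the 9 genes was -0.62, beside -0.04 for all probes. That median is the value of Egr2, which was well above background on no array. It was -0.60 over 8 genes with Nr4a3 at its bound and without Egr2. Over the 7 genes well above background it was -0.48, beside 0.02 for such probes. Without scaling between arrays the median of all probes moved to 0.34 and no gene of the 9 kept separate groups, although Fos (-0.10) and Jun (-0.08) stayed below 0.

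The slide row that held both treatments, with LPS replicate 1 and the 3 saline arrays, allowed a comparison within the row. There the difference was -2.34 for Nr4a1, -0.50 for Nr4a2, -0.19 for Fos, -0.43 for Jun, -0.06 for Junb, -0.81 for Egr1 and -0.03 for Atf3. The sign was the same as on all arrays except for Atf3, and Junb and Egr1 moved the most.

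**Figure D2:**
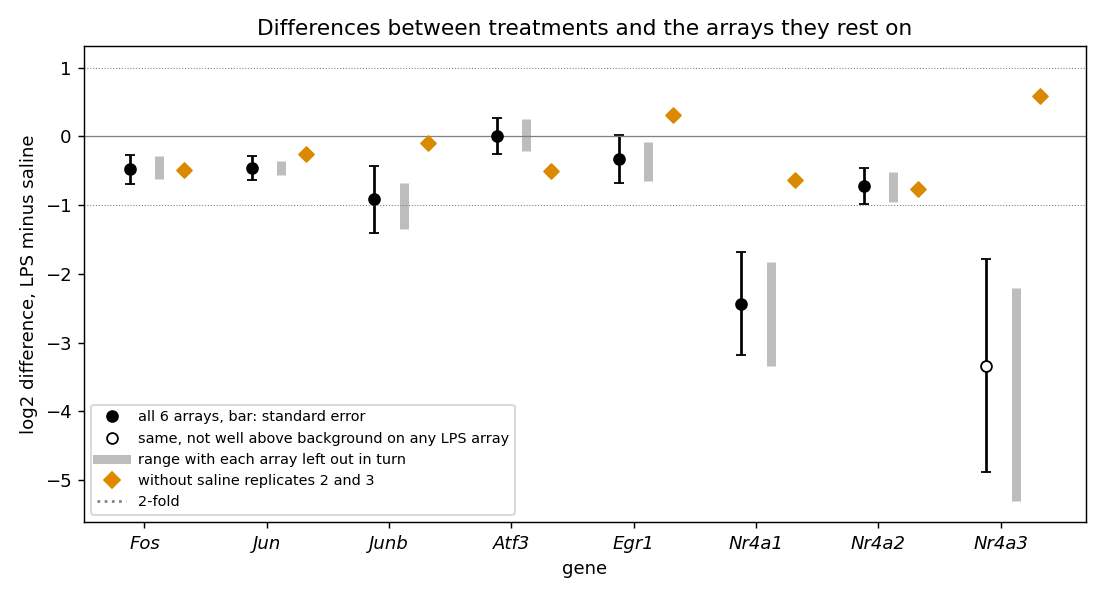
Difference between LPS and saline arrays (y axis, log2, LPS minus saline) for the 8 genes above background on any array. Circles are values from all 6 arrays with SE bars, open for Nr4a3, whose LPS arrays were all too dim. Grey bars span the values obtained when single arrays are left out, and diamonds leave out saline replicates 2 and 3 together. Nr4a1 moves from -2.44 to -0.64 at the diamond, while Fos (-0.48) and the brighter Nr4a2 probe (-0.76) hardly move.

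Nr4a1 and Nr4a3 were high on the same arrays as the adrenal markers. The summed level of the 12 adrenal cortex markers was 2.88 to 4.52 on the LPS arrays, 3.03 on saline replicate 1 and 8.38 and 8.74 on saline replicates 2 and 3. On the LPS arrays and saline replicate 1 the brightest of them was Hsd3b1 (1.84 to 3.91), which is also expressed in ovary. That of the 11 medulla markers was 1.85 to 2.62 on the LPS arrays, 2.70 on saline replicate 1 and 6.62 and 5.90 on saline replicates 2 and 3. Cyp11b1, the enzyme of the last step to corticosterone, lay between -7.53 and -6.26 on the other 4 arrays, where it was not well above background, and at 5.62 and 6.05 on saline replicates 2 and 3. Chga, the chromaffin granule protein chromogranin A, was likewise well above background on these 2 arrays only, at 0.68 and -0.11. Dbh, which makes noradrenaline, was well above background on them and on LPS replicate 3, and Cyp11b2, which makes aldosterone, on them and on LPS replicate 1. Th and Pnmt, the first and last enzymes of adrenaline synthesis, were measured above background throughout and read 4.40 and 3.81 (Th) and 4.92 and 4.33 (Pnmt) on saline replicates 2 and 3, against at most 1.91 and 0.25 elsewhere. Saline replicates 2 and 3 were also the highest for Jun, Junb and Egr1, so that 4 of the 7 genes well above background had this order. Of all probes well above background on every array, 13.4% had it. Oocyte markers summed to 4.32 and 5.07 on saline replicates 2 and 3, within the range of the other arrays (4.06 to 5.55), and granulosa cell markers to 5.25 and 5.98 (4.31 to 6.30 on the others). The sums of other lists were lowest on these 2 arrays. Oviduct and epithelial markers summed to 3.33 and 3.62 (3.99 to 4.79 on the others), macrophage markers to 1.79 and 1.53 (1.96 to 2.14) and skeletal muscle markers to -1.76 and -1.52 (-1.35 to -0.59). Single macrophage and muscle markers did not all follow their sum. Aif1, the brightest macrophage marker, and the muscle gene Acta1 were lowest on both arrays. Cd163 was highest on saline replicate 2 (-3.65), and Ckm read -4.09 there, above LPS replicate 3 (-4.49). Red blood cell markers summed to 5.67 and 5.20 (4.57 to 5.31) and kidney markers to -2.15 and -1.66 (-2.15 to -1.10). The part of the marker transcripts in the Nr4a1, Nr4a3 and Junb differences was not tested beyond leaving the 2 arrays out.

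**Figure D3:**
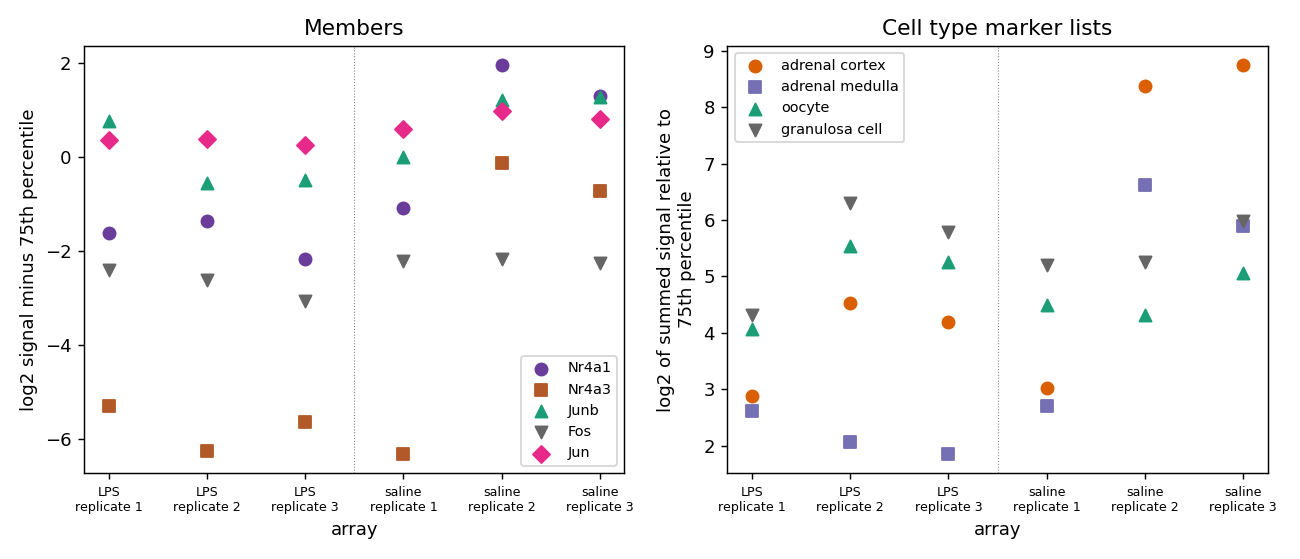
Left, levels of Nr4a1, Nr4a3, Junb, Fos and Jun on the 6 arrays (y axis, log2 signal minus the 75th percentile of the array). Right, log2 of the summed signal of the adrenal cortex, adrenal medulla, oocyte and granulosa cell marker lists on the same arrays. The adrenal lists and Nr4a1 and Nr4a3 are high on saline replicates 2 and 3, with adrenal cortex sums of 8.38 and 8.74, while Fos stays between -3.06 and -2.17 and oocyte sums between 4.06 and 5.55.

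The pattern of Nr4a1 over the 6 arrays was shared by many genes. Likeness was measured as Pearson's r over the 6 arrays with each of 11162 named probes (9696 genes) that passed the background filter on every array. The genes closest to Nr4a1 were Il12rb1 (r = 0.998), an interleukin 12 receptor subunit, Slc25a10 (0.994), the mitochondrial dicarboxylate carrier, Camk2b (0.993), a calmodulin-dependent kinase subunit, Tst (0.992), a mitochondrial sulfurtransferase, and Mpv17l2 (0.992). An r above 0.9 was reached by 599 probes, 5.37% of those compared. For the mean of the 9 genes, each centred first, the levels were -0.34, -0.53 and -0.68 on LPS replicates 1 to 3 and -0.25, 1.07 and 0.74 on saline replicates 1 to 3. The genes were not scaled, so Nr4a3 and Nr4a1, which spanned 6.18 and 4.11 over the arrays, weighed most in this mean. The others spanned 0.72 to 1.82, with Egr2 at background and Atf3 running the opposite way. The closest genes to this mean were Mybpc1 (r = 0.999), a myosin-binding protein, Cdkn1c (0.999), the cell cycle inhibitor p57, Dbp (0.998), a transcription factor of the circadian output, Sts (0.996), steroid sulfatase, and Cebpb (0.996), a basic leucine zipper factor. In all, 582 probes (5.21%) had an r above 0.9 with this mean. These values are a description of 6 arrays that share their scaling, and in each of these patterns saline replicates 2 and 3 lay apart from the rest.

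Other genes of the immediate early response were examined from lists drawn up by role, with earlier results of these data known, to see whether the wider response differed between treatments. None of 40 other immediate early and feedback genes, all with a probe, was past 2-fold at an unadjusted p under 0.05, a criterion met by 1.69% of all probes. None had an adjusted p under 0.05 in limma with Benjamini-Hochberg adjustment over all probes, as was the case for 0% of all probes, and 5 had an unadjusted p under 0.05. An equal-variance test of each probe alone, run here beside limma, gave 5 at an unadjusted p under 0.05 and 0 after adjustment. The lowest adjusted p in limma was 0.271. Of the 40 genes 27 had a negative difference, and their median was -0.07, beside -0.04 over all probes. The 5 in limma were Egr4, Fosl1, Zfp36 and Sik1, all well above background on no array, and the Krüppel-like factor Klf4. Klf4 was 0.48 higher on the LPS arrays (SE 0.19, adjusted p = 0.287 in limma) and 0.20 higher without saline replicates 2 and 3. These 5 are named here after their values were seen. They were 3 immediate early and 2 feedback genes, whereas the equal-variance test had 4 and 1, so the sets differed.

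Among the 18 other immediate early genes the largest differences above background were those of Myc, Ccn1 and Arc. Myc, the growth-promoting factor, read 0.89, 0.57 and 0.60 on LPS replicates 1 to 3 and 0.62, 1.92 and 1.51 on saline replicates 1 to 3, with a difference of -0.66 (SE 0.34, adjusted p = 0.406 in limma). It had the array order of Nr4a1 for its 2 highest arrays, and without saline replicates 2 and 3 its difference was 0.07. Without saline replicate 1 the Myc difference was -1.03 and met the 2-fold criterion. Ccn1, a matrix-associated protein induced by serum, differed by -0.57 (SE 0.29, adjusted p = 0.399 in limma), and Arc, a cytoskeletal gene induced by activity in neurons, by -0.51 (SE 0.30, adjusted p = 0.483 in limma). Without saline replicates 2 and 3 the Ccn1 difference was -0.35 and that of Arc turned to 0.13. Among the 22 feedback genes, which shut the response off again, the largest were the MAP kinase phosphatases Dusp6 at -0.57 (SE 0.33), Dusp2 at 0.45 (SE 0.28) and Dusp1 at -0.45 (SE 0.28), with adjusted p of 0.481, 0.528 and 0.535 in limma. Dusp6, which inactivates ERK, read -0.08, -0.39 and -0.43 on LPS replicates 1 to 3 and -0.45, 0.65 and 0.61 on saline replicates 1 to 3, again with saline replicates 2 and 3 highest. Without those arrays the difference was 0.15 for Dusp6, -0.11 for Dusp1 and 0.64 for Dusp2. Across the 2 lists, 4 of 15 immediate early and 4 of 18 feedback genes well above background were highest on saline replicates 2 and 3, against 13.4% of probes.

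Upstream of these genes lie the kinases and factors that switch them on, and 22 of 26 listed regulators had a probe, with none matched for Mrtfa, Mrtfb, Crtc3 and Mef2c. Of these, 1 was lower at the 2-fold criterion and none was higher. It was Rps6ka1, the ERK-activated kinase RSK1 that phosphorylates CREB and SRF, which read 1.46, 1.26 and 1.25 on LPS replicates 1 to 3 and 1.55, 3.17 and 2.83 on saline replicates 1 to 3. The groups did not overlap, but saline replicate 1 was above the LPS arrays by little. The Rps6ka1 difference was -1.19 (SE 0.41), with an adjusted p of 0.271 in limma. It lost the criterion in 10 of 19 alternative settings, among them the exclusion of replicate 2 or replicate 3 of either treatment, and it was -0.23 without saline replicates 2 and 3. Without saline replicate 1 it was -1.68 with an adjusted p of 0.0282 in limma, within a range from 0.0282 to 0.963 over the alternatives. The share of all probes under 0.05 in that setting was not taken. No regulator passed an adjusted p under 0.05 on all arrays in limma, 2 had an unadjusted p under 0.05 (Rps6ka1 and Mef2a, the latter well above background on no array), and the equal-variance test gave 4 and, after adjustment, 0. Prkaca, the catalytic subunit of protein kinase A, differed by -0.36 (SE 0.18, adjusted p = 0.389 in limma), and Atf2, a CREB-related factor, by 0.31 (SE 0.17, adjusted p = 0.438 in limma), which became -0.20 and 0.28 without saline replicates 2 and 3. The median of the list was 0.04.

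The receptors that pair with Nr4a proteins or share their sites were the last list, and all 7 had a probe. None passed the 2-fold criterion or an adjusted p under 0.05, and none had an unadjusted p under 0.05 in limma, while the equal-variance test gave 1 and, after adjustment, 0. Nr5a1, steroidogenic factor 1, which is also in the adrenal cortex list, differed by -1.64 (SE 1.15, adjusted p = 0.609 in limma). It read -3.94, -1.78 and -2.48 on LPS replicates 1 to 3 and -3.73, 0.15 and 0.30 on saline replicates 1 to 3, and without saline replicates 2 and 3 its difference turned to 1.00. Nr3c1, the glucocorticoid receptor, differed by 0.42 (SE 0.37) and Rxrb, one of the retinoid X receptors with which Nr4a proteins can pair, by -0.42 (SE 0.18), with adjusted p of 0.730 and 0.305 in limma. Without saline replicates 2 and 3 that of Rxrb was -0.19 and that of Nr3c1 turned to -0.25, and the mean of all Nr3c1 probes also gave a negative value (-0.14). Nr0b1, which encodes Dax1 and was named after its values were seen, read -2.41, -2.70 and -3.09 on LPS replicates 1 to 3 and -3.47, 1.27 and 0.75 on saline replicates 1 to 3. Its difference was -2.25 (SE 1.18, adjusted p = 0.420 in limma), and without saline replicates 2 and 3 it turned to 0.74. Without saline replicate 1 Nr0b1 had an adjusted p of 0.00539 in limma, in a range up to 0.963 over the alternatives. For that setting, too, the share over all probes was not taken. The median of the 7 receptors was -0.17.

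**Figure D4:**
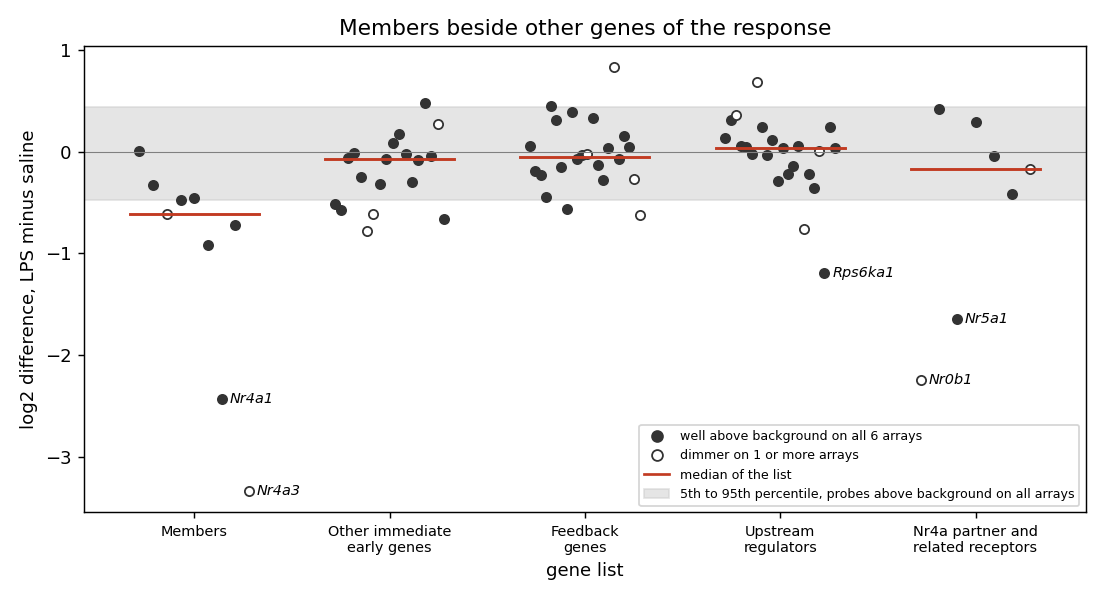
Difference between LPS and saline arrays (y axis, log2, LPS minus saline) for each gene of 5 lists, with filled circles for genes well above background on all 6 arrays, open circles for dimmer ones and red bars for list medians. The grey band holds the middle of all probes well above background, from their 5th (-0.47) to their 95th (0.44) percentile. Most genes of the other lists lie in or near the band, and Nr4a1, Nr4a3, Rps6ka1, Nr5a1 and Nr0b1 lie at least 2-fold below 0.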

How the data were processed

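RNA of whole ovaries was measured on 6 single-colour Agilent arrays, 3 per treatment. For each array the authors deposited the intensity of every spot, as extracted with Agilent Feature Extraction 10.5.1.1. The processed signal has the background subtracted, with a surrogate value for spots too dim to measure. Normalization by the authors and their test for the arrays were not given in the sources used here. The deposited value table held the same intensity values within 0.497%, without scaling between arrays, and was used as an alternative.

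Outlier-flagged spots were left out, spots of a probe were averaged on the log2 scale, and the 75th percentile of each array was subtracted. Treatments were compared on all 6 arrays over 30367 probes with lmFit and eBayes of limma 3.58.1 (R 4.3.3) and Benjamini-Hochberg adjustment, after a test on simulated data. Probes were named through RefSeq accessions with a table of GRCr8, used for names only (17990 probes named). The probe with the highest mean signal stood for a gene. Promoter windows came from RefSeq for GRCr8.

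The genes described, the gene lists and the marker lists were chosen with earlier results of these data known. Named from the other lists were genes past 2-fold at an unadjusted p under 0.05 and, per list, the 3 largest differences among genes well above background on all arrays, with the 5 most alike genes for each pattern. The smallest p of an exact permutation test, 0.1 with 3 arrays per treatment, cannot reach 0.05. Arrays of the 2 treatments with the same replicate number deviated together from their group means (correlations across probes of 0.298, 0.215 and 0.254), and the pairing rests on these values alone. Correlations were also positive for LPS replicate 2 with saline replicate 3 (0.160) and LPS replicate 3 with saline replicate 2 (0.068). They were negative where replicate 1 met replicate 2 or 3. The values thus set replicate 1 apart from replicates 2 and 3 and do not single out 3 pairs. The 19 alternatives covered background correction, scaling, the value table, dim and flagged spots, the test, slide row, replicate block, the probe for a gene and arrays left out. Signal over background, rather than read depth, limits precision here.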

Additional observations from a re-analysis of the deposited data

How the results depend on the processing

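Nr4a1 was lower on the LPS arrays under all 18 alternatives to which the genes were put, from -3.34 (without saline replicate 1) to -0.64 (without saline replicates 2 and 3), and at least 2-fold lower in 17. Nr4a3 turned to 0.58 without saline replicates 2 and 3, where it was well above background on no array. The count of genes at least 2-fold lower, 2 on all arrays, was 1 with a filter on dim probes, 0 without saline replicates 2 and 3 and 2 to 3 when single arrays were left out. The count of genes with separate groups, in either direction, was 5 on all arrays and 0 with no normalization between arrays. It was 5 to 9 when single arrays were left out. The 9 came without saline replicate 1 and included Atf3, with its LPS arrays above its saline arrays. The count was 7 without saline replicates 2 and 3, where 1 saline array remained and lay below the LPS arrays for Nr4a3. Groups of fewer arrays are separate more easily, and the share over all probes was not taken under these settings. Nothing is therefore drawn from these counts.

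For the other lists the counts at 2-fold and an unadjusted p under 0.05 were small throughout. For other immediate early and feedback genes (0 on all arrays) the count was 1 with no normalization (Sik1), 2 with the slide row as a block (Dusp4 and Sik1), 2 without saline replicates 2 and 3 (Egr4 and Sik1) and 0 to 1 with single arrays left out. For upstream regulators (1) it was 0 with normexp, with no background correction and by the equal-variance test of each probe alone, and 0 to 1 with single arrays left out. For the receptors (0) it was 1 with normexp (Nr0b1), 2 with no background correction (Nr0b1 and Nr5a1), 1 with the slide row as a block (Nr5a2) and 0 to 2 with single arrays left out. With the replicate block it was 1 (Nr5a1), and the replicate block moved no other count, with Nr4a1 at -2.44 as before. An adjusted p under 0.05 was reached only without saline replicate 1, by 1 regulator (Rps6ka1) and 1 receptor (Nr0b1), so the range over single arrays left out was 0 to 1 for both. There the only saline arrays were replicates 2 and 3, on which adrenal marker transcripts were high. For the counts of these lists the share over all probes was not taken under the alternatives, so nothing is drawn from them. The cause of these changes was not tested. The median of the 9 genes moved most with no normalization between arrays, to -0.24, again the value of the dim Egr2. That of the receptors moved most without saline replicates 2 and 3, to 0.50. Only 2 saline arrays carry the Nr4a1 and Nr4a3 differences, Junb and the brighter Nr4a2 probe rest on 1 spot per array, and Egr2 was too dim on every array.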
